A study of Ramazzottius varieornatus and Hypsibius exemplaris with 16 samples.

Results

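The 150 targets (transcript models) described here come from the tardigrade Ramazzottius varieornatus and were abundant in storage cell replicates 2 and 4 but nearly missing from storage cell replicates 1, 3 and 5. They were chosen by their measured levels. Levels were scaled to CPM, the estimated counts of a target per 1000000 counts of its library, with no correction for length. A target qualified when its coding length was under 9000 bases, it reached 20 CPM in both replicates 2 and 4, both values were more than 4 times the highest of replicates 1, 3 and 5, and at least 1 of these 3 lay below the lowest whole-body CPM. Of 14532 targets in the tables of this species, 302 (2.08%) met every threshold, and the 150 with the highest selection ratio were kept. That ratio is the lower of replicates 2 and 4 plus 1, over the highest of replicates 1, 3 and 5 plus 1. By their identifiers the selected targets belong to separate genes, except for 2 genes with 2 targets each. Over both species of the study, 35385 targets were listed.

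The libraries were 3 from active whole animals and 5 from storage cells, all of the strain YOKOZUNA-1, kept at 22 °C on agar and fed with Chlorella vulgaris. Whole animals were broken up and lysed, and RNA was then extracted with a column kit. Storage cells were set free by dissecting animals in dilute buffered saline, aspirated, and placed straight into the lysis buffer of the amplification kit, so that RNA extraction and sample type cannot be told apart. Both kinds of sample were amplified with that kit. The labels call the replicates biological and do not say how many animals or cells went into a library, nor how the cells were told from other material released by the cut. The same design was used for Hypsibius exemplaris, whose targets carry other identifiers and were not compared here.

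Storage cells are free cells that float in the fluid of the tardigrade body cavity. They hold reserves such as lipid, glycogen and protein and pass them on to the rest of the animal. A whole-body library, in contrast, pools the RNA of every tissue, storage cells included. None of the identifiers (0 matches) was found in the RefSeq gene table of this strain, so the targets have no gene names, roles or sequences here, and the labelled cell type was not checked against marker genes.

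The total of estimated counts lay between 5404555 and 5601269 in whole bodies and between 8228370 and 11174369 in storage cells. Storage cell replicates 2 and 4 also had more targets with at least 5 counts (9928 and 9195) than replicates 1, 3 and 5 (7665 to 8256), against 10752 to 10823 in whole bodies. Over 9651 targets outside the 302 that met the thresholds and with a mean of at least 10 counts, replicates 1, 3 and 5 had rank correlations of 0.884 to 0.893 with each other. Replicate 4 correlated with these 3 at 0.819 to 0.879, replicate 2 correlated with them at 0.726 to 0.764, and replicates 2 and 4 correlated with each other at 0.783. These correlations are across targets of libraries that share a protocol, and they describe the libraries only. Away from the selected targets, replicate 4 was thus nearer to replicates 1, 3 and 5 than to replicate 2.

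Both libraries also held the transcripts that were abundant in the other storage cell replicates. A set of 196 targets had at least 20 CPM in each of replicates 1, 3 and 5 and more than 4 times the highest whole-body value in each. It was defined after the data were seen. It held 15.8%, 15.7% and 10.1% of the counts of replicates 1, 3 and 5, 4.66% of those of replicate 2, 9.42% of those of replicate 4, and 1.21% to 1.30% of those of whole bodies. Of the 196 targets, 178 lay above every whole-body value in replicate 2 and 194 in replicate 4. Most of these targets were therefore above the body in both libraries, and the set held lower shares of their counts than in replicates 1, 3 and 5. The set was chosen for high values in replicates 1, 3 and 5, so nothing is read from the lower shares.

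The selected targets made up a large share of replicates 2 and 4. Together they held 13.5% of all counts in replicate 2 and 12.8% in replicate 4. In whole bodies they held 4.78%, 4.24% and 4.46% (mean 4.49% ± 0.271, SD, n = 3). In replicate 1 they held 643 counts, or 0.00781% (95% Wilson interval 0.00723% to 0.00844%), in replicate 3 they held 2538 counts, or 0.0263% (0.0253% to 0.0273%), and in replicate 5 they held 521 counts, or 0.00466% (0.00428% to 0.00508%). The intervals of the other 5 libraries reached at most 0.0212 percentage points to either side, and all intervals cover counting error only. The whole bodies thus lay between replicates 2 and 4 and the other 3, and the gap among the storage cell libraries is set by the selection. In such bulk libraries, fewer cells of a type and less RNA per cell cannot be told apart.

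**Figure D1:**
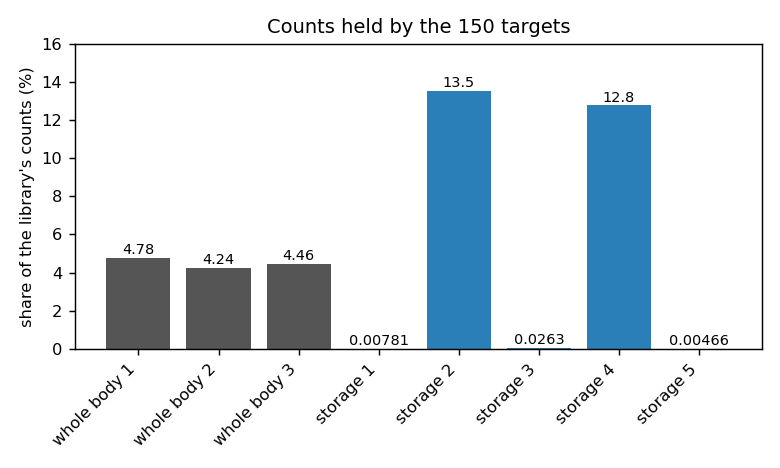
Share of each library's estimated counts held by the 150 selected targets, in percent, for 3 whole-body libraries (grey) and 5 storage cell libraries (blue). Replicates 2 and 4 reach 13.5% and 12.8%, whole bodies 4.24% to 4.78%, and replicates 1, 3 and 5 at most 0.0263%.

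In replicates 1, 3 and 5 the selected targets were close to the detection limit. An estimated count below 0.5 was taken as no count. Of the 150 targets, 79 had no count in replicate 1, 70 had none in replicate 3 and 102 had none in replicate 5, and 39 had none in any of the 3. In CPM, 101 targets stayed below 1 CPM in all 3 libraries, whereas 8 reached 10 CPM in at least 1. All 150 lay below the lowest whole-body value in each of replicates 1, 3 and 5. The rule asked this of at least 1 of them. The selection ratio favours low values in all 3, so nothing is read from this. Among the targets with a count, replicate 3 was the highest of the 3 for 62, replicate 1 for 33 and replicate 5 for 16.

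**Figure D2:**
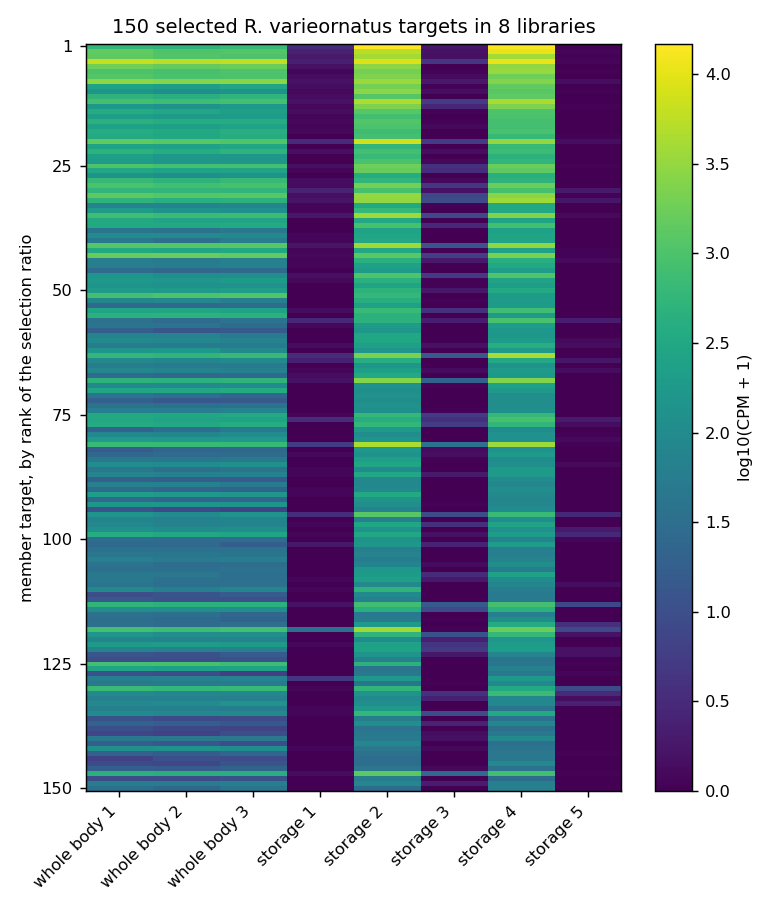
Levels of the 150 selected targets (rows, ordered by selection ratio) in the 8 libraries (columns), as log10(CPM + 1). Columns of storage cell replicates 2 and 4 are bright from top to bottom, whole bodies are intermediate, and replicates 1, 3 and 5 are dark, with 70 to 102 targets at no count.

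The highest ranked target was g2415.t1 (coding length 1257 bases). Whole bodies gave 585, 513 and 632 CPM, storage cell replicates 2 and 4 gave 14757 and 13678 CPM, and replicates 1, 3 and 5 gave 2.55, 0.828 and 0.0895 CPM. Replicates 2 and 4 stood 25.6 and 23.7 times above the whole-body mean of 577 ± 59.8 CPM (SD, n = 3), and no storage cell value fell inside the whole-body range. In replicate 5 its level rests on 1 count.

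Target g8541.t1 (1923 bases) had 1448, 1039 and 1123 CPM in whole bodies. Its storage cell values were 5426 CPM in replicate 2 and 10734 CPM in replicate 4, and 1.46, 0.621 and 0.179 CPM in replicates 1, 3 and 5. Replicate 4 was here 1.98 times replicate 2, a wider gap than for g2415.t1. Target g631.t1 (909 bases) had 1343, 1084 and 1018 CPM in whole bodies, 4002 and 3913 CPM in replicates 2 and 4, and 0.972, 0.518 and 0.0895 CPM in replicates 1, 3 and 5. For both targets the 2 high storage cell libraries lay above all whole bodies and the 3 low ones far below.

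Other highly ranked targets were near their whole-body level in replicates 2 and 4. Target g297.t1 (1515 bases) had 6423, 5430 and 5976 CPM in whole bodies, 8805 and 10678 CPM in replicates 2 and 4, and 1.27, 3.62 and 0.143 CPM in replicates 1, 3 and 5. Target g300.t1 (750 bases) had 1742, 1460 and 1728 CPM in whole bodies and 2765 and 3153 CPM in replicates 2 and 4. In replicates 1 and 5 it had 0.551 and 0.0356 CPM, and it had no count in replicate 3. Both have counts that are not whole numbers, so some of their reads were shared with other targets and their levels are uncertain. The values of g297.t1 in replicates 2 and 4 were 1.48 and 1.8 times the whole-body mean, far from the 25.6 times of g2415.t1.

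Target g4056.t1 (702 bases) had 963, 887 and 986 CPM in whole bodies, 1993 and 3364 CPM in replicates 2 and 4, and a single count in each of replicates 1, 3 and 5. Target g12533.t1 (1185 bases) had 1133, 949 and 999 CPM in whole bodies, 2311 and 1799 CPM in replicates 2 and 4, 3 counts in each of replicates 1 and 3, and none in replicate 5. In both, the order on the CPM scale was the same as in the targets above. Target g3140.t1 (882 bases) differed. It had 2910, 2604 and 2671 CPM in whole bodies, 3492 CPM in replicate 2 and 2509 CPM in replicate 4, so that replicate 4 lay below all 3 whole bodies.

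Some of the selected targets were among the most abundant transcripts of the 2 libraries when counts are taken per length. The deposited TPM (counts over effective length, scaled to 1000000 a library) correct for length and allow levels to be compared between targets. On this scale 21 of the 150 were among the 100 most abundant targets of replicate 2, 17 were among those of replicate 4, and 13 were among those of the whole-body mean. Each such list holds 100 of 14532 targets. The rule favours targets that are high in replicates 2 and 4, so no excess is read from these counts. The highest was g12459.t1 (369 bases), with 16597 TPM in replicate 2 and 19027 TPM in replicate 4, rank 4 of all targets in both libraries. In whole bodies it had 4105 ± 402 TPM (SD, n = 3), which is rank 21. Target g8269.t1 (492 bases) had 13739 and 10304 TPM in replicates 2 and 4 against 3154 ± 160 TPM in whole bodies (SD, n = 3). In replicates 1, 3 and 5 the highest value of the 2 was 108 TPM, of g8269.t1 in replicate 3. Both were singled out after their values were seen. Target g1470.t1 (1434 bases), among the 4 highest by the lower CPM of replicates 2 and 4, had 866, 749 and 844 CPM in whole bodies, 4523 and 4295 CPM in replicates 2 and 4, and at most 4.24 CPM in the other 3 storage cell libraries.

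The 5 selected targets with the highest mean whole-body CPM were g297.t1, g3140.t1, g300.t1, g8526.t1 and g9072.t1. Target g8526.t1 (924 bases) had 1566, 1643 and 1445 CPM in whole bodies, 1286 CPM in replicate 2 and 2146 CPM in replicate 4, on either side of the whole-body range. On the TPM scale both replicates lay below every whole body, with 1282 and 1950 TPM against 2400, 2517 and 2184 TPM. Target g9072.t1 (1692 bases) had 1358, 1169 and 1198 CPM in whole bodies and lay above them with 3212 and 2640 CPM in replicates 2 and 4. At the other end stood g298.t1, g13533.t1 and g135.t1, with whole-body means of 6.97 ± 1.93, 7.49 ± 1.71 and 7.54 ± 2.01 CPM (SD, n = 3). Their values in replicates 2 and 4 were 47.7 and 47.7 CPM for g298.t1, 37.9 and 33.8 CPM for g13533.t1, and 31 and 45.3 CPM for g135.t1, all above the whole bodies. The mean whole-body CPM of the 150 targets, not corrected for length, ran from 6.97 to 5943 with a median of 93.2.

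Most selected targets were higher in both replicates than in any whole body. On the CPM scale this held for 124 of 150, while 8 lay below every whole body in both replicates and 18 did neither. Among the other 4313 targets with at least 20 CPM in both replicates, 2157 (50%) lay above every whole body in both and 982 (22.8%) lay below. On the TPM scale 93 of the selected targets (62%) lay above and 22 below, against 1044 of the 4313 (24.2%) above and 1767 below. The rule favours targets that are high in these libraries, so no excess is read from these shares. Which scale is used moved both counts among the other targets, and the count of selected targets below the whole bodies, by more than 1.5 times.

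The size of the difference varied widely among the selected targets. The ratio to the whole-body mean CPM ran from 0.154 to 25.6 in replicate 2, with a median of 3.51, and from 0.0515 to 28 in replicate 4, with a median of 2.62. The highest ratio in replicate 4 belonged to g1054.t1 (375 bases), singled out after its values were seen, with 35.3, 27.2 and 38.4 CPM in whole bodies and 482 and 942 CPM in replicates 2 and 4. On the log2(CPM + 1) scale the median over the 150 targets of the lower of the 2 replicates minus the whole body was 1.28, against 0.13 over the other 4313 targets. With TPM in place of CPM the median over the 150 was 0.48. The selection ratio favours a high value of the lower replicate, so no excess over the other targets is read from these medians. The ratios followed each other between the 2 libraries (rank correlation 0.818 over the 150 targets), as did the levels themselves (0.906). Levels in replicates 2 and 4 also followed those in whole bodies, with rank correlations of 0.822 and 0.773. These correlations are descriptions across targets that share libraries, depth and selection.

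**Figure D3:**
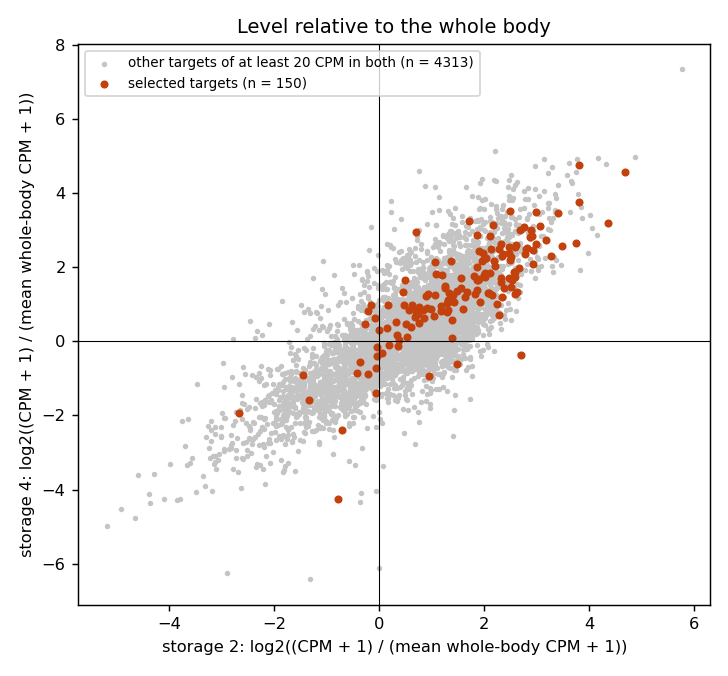
Level in storage cell replicate 2 (horizontal) and replicate 4 (vertical) relative to the mean of 3 whole bodies, as log2((CPM + 1)/(mean whole-body CPM + 1)). Each point is a target, the 150 selected ones are in red and 4313 others with at least 20 CPM in both are in grey. Most red points lie above 0 on both axes and inside the grey cloud.

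Longer targets stood lower against the whole body. Coding lengths of the selected targets ran from 369 to 6798 bases with a median of 1323, close to the 1356 bases of the other 4313 targets and above the 1080 bases of all targets. Over the 150 targets, length and the ratio to the whole body had rank correlations of -0.51 in replicate 2 and -0.55 in replicate 4. The same correlations over 4312 of the other targets with a whole-body count were -0.65 and -0.61, so the relation was no weaker outside the selection. The 8 targets that lay below every whole body in both replicates had a median length of 3121.5 bases. Only 1 of these 8 was shorter than 2979 bases, g10095.t1 with 516 bases, whose levels are described below. The part of length in the comparison with whole bodies was not tested.

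Replicates 2 and 4 were close to each other for most of the selected targets. The ratio of replicate 2 to replicate 4 had a median of 1.12 with quartiles of 0.858 and 1.39, and 127 of the 150 (84.7%) were within 2-fold. Among the other 4313 targets the median was 1.18 with quartiles of 0.793 and 1.75, and 3192 (74%) were within 2-fold. Replicate 2 was the higher of the 2 for 97 of the selected targets and replicate 4 for 53. The other 4313 targets leaned the same way, with replicate 2 higher for 2658 and replicate 4 for 1655. Both libraries had to pass the same thresholds, so some of this closeness is set by the rule.

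The largest ratio of replicate 2 to replicate 4 was in g10095.t1. It had 839, 914 and 742 CPM in whole bodies, 480 CPM in replicate 2, 42.9 CPM in replicate 4 and 1 count over replicates 1, 3 and 5. Replicate 4 was thus at 5.15% of the whole-body mean and replicate 2 at 57.7%, and its counts are not whole numbers. Target g12387.t1 (2403 bases) had 511 CPM in replicate 2 and 60.1 CPM in replicate 4, above and just below the whole bodies (91.8, 62.5 and 79.1 CPM), and target g7019.t1 (999 bases) had 172 and 39.2 CPM against 62.3, 63.1 and 56.2 CPM. In all 3 targets replicate 4 lay below the whole-body range.

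The reverse order was led by g13163.t1 (1131 bases), with 143 CPM in replicate 2 and 693 CPM in replicate 4 against 95.4, 83.3 and 85.2 CPM in whole bodies. Target g3110.t1 (600 bases) had 30.4 and 90.5 CPM in replicates 2 and 4 against 7.72, 7.03 and 11.1 CPM. Target g12657.t1 (1509 bases) had 396 and 894 CPM against 323, 266 and 262 CPM. On the CPM scale both replicates lay above the whole bodies for these 3 targets, and replicate 4 was 4.85, 2.98 and 2.26 times replicate 2. On the TPM scale this held for g3110.t1 only. There g12657.t1 had 199 TPM in replicate 2, below every whole body (269, 220 and 217 TPM). Target g13163.t1 had 107 TPM in replicate 2, inside the whole-body range (117, 102 and 104 TPM).

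Of the whole-body transcripts nearly missing from replicates 1, 3 and 5, a part was present in replicates 2 and 4, and a larger part in replicate 2. With the same limit on length, 595 targets had a whole-body mean of at least 20 CPM and less than 1 CPM in each of replicates 1, 3 and 5. Of these, 92 (15.5%) reached 20 CPM in both replicates 2 and 4, of which 82 were among the selected 150. Replicate 2 alone reached 20 CPM for 156, replicate 4 alone for 21, and neither did for 326. Both replicates stayed below 1 CPM for 157 (26.4%). Of the 85 targets with a whole-body mean of at least 200 CPM, 23 (27.1%) reached 20 CPM in both replicates, all of them selected, and 12 (14.1%) stayed below 1 CPM in both. Replicate 2 reached 20 CPM for 54 of the 85 (63.5%) and replicate 4 for 26 (30.6%). Targets with these levels in replicates 1 to 5 exceed the 4 times that the rule asks, so their overlap with the selection is largely set by the rule.

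Some whole-body targets with high counts were at or near 0 in both replicates. Target g8459.t1 (2019 bases) had 814, 964 and 1229 CPM in whole bodies, 0.2 CPM in replicate 2 and none at all in the remaining storage cell libraries. The 2 targets of gene g4929, g4929.t1 and g4929.t2, had whole-body means of 943 ± 325 and 998 ± 181 CPM (SD, n = 3) and less than 1 CPM in every storage cell library. These 3 were named, after their values were seen, as the most abundant targets of this kind.

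**Figure D4:**
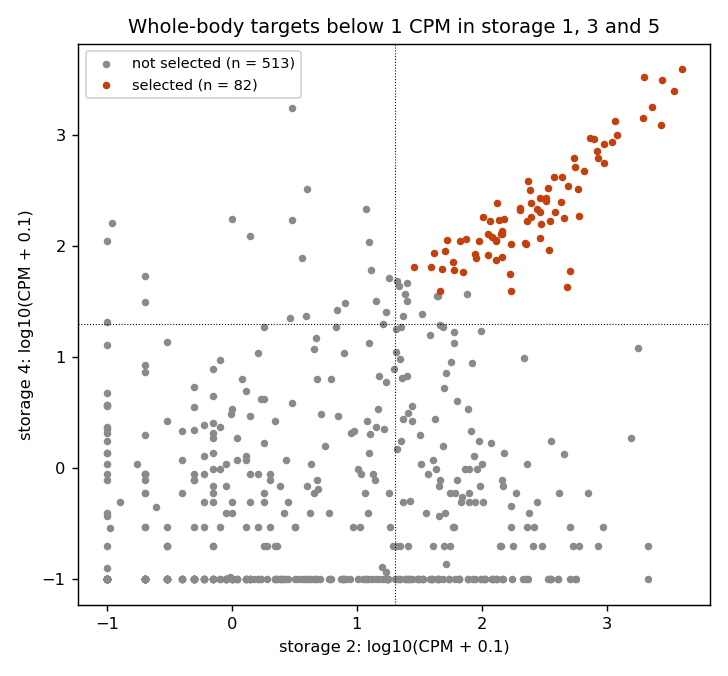
CPM in storage cell replicates 2 (horizontal) and 4 (vertical), as log10(CPM + 0.1), of 595 targets with a whole-body mean of at least 20 CPM and less than 1 CPM in replicates 1, 3 and 5. Dotted lines mark 20 CPM: 92 targets lie in the upper right, 82 of them selected (red), 156 lie in the lower right, 21 in the upper left and 326 in the lower left.

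Several of the selected targets carry consecutive gene numbers. Among the selected genes, 30 had another selected gene at the next or previous number, in 13 runs. The longest runs held 4 genes (g12533 to g12536, and g12680 to g12683), and the other 11 held 2. Whether numbers that follow each other stand for neighbouring genes is not given in the sources used here. Of the 268 other targets at a number next to a selected gene, 6 (2.24%) met the thresholds without being among the 150, against 151 of all 14378 targets of genes without a selected member (1.05%). Gene numbers from g12000 to g12999 held 27 of the 150, or 2.59% of the 1044 targets listed there, against 1.03% of all targets. It is the only such block given here and it holds both of the longest runs, so no clustering is read from it.

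In the run from g12533 to g12536 all 4 targets lay above the whole bodies in replicates 2 and 4 on the CPM scale. The first was described above. Target g12534.t1 (1107 bases) had 492, 453 and 505 CPM in whole bodies, 2458 and 2377 CPM in replicates 2 and 4, 0.608 CPM in replicate 1 and 18.7 CPM in replicate 3, and no count in replicate 5. Target g12535.t1 (576 bases) had 209, 178 and 193 CPM in whole bodies, 793 and 923 CPM in replicates 2 and 4, 1 count in replicate 1 and none in replicates 3 and 5. Target g12536.t1 (927 bases) had 300, 258 and 269 CPM in whole bodies, 1569 and 1348 CPM in replicates 2 and 4, and 1, 24 and 0 counts in replicates 1, 3 and 5. For the 4 targets of this run, replicates 2 and 4 were at 1.75 to 5.69 times the whole-body mean CPM. On the TPM scale g12533.t1 had 1115 TPM in replicate 4, inside the whole-body range (1251, 1048 and 1092 TPM), while the other targets of the run stayed above.

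The numbers after this run were low in every library until g12540.t1 (1185 bases), a further selected target with 992, 846 and 831 CPM in whole bodies and 1769 and 1631 CPM in replicates 2 and 4. Targets of g12537, g12538 and g12539 had at most 2.87 CPM in any library. Before the run, g12532.t1 met the thresholds at rank 236, with 65.9 and 54.6 CPM in replicates 2 and 4 against 7.72, 5.92 and 6.43 CPM in whole bodies. Target g12531.t1, with 94.2 to 107 CPM in whole bodies and 27.7 to 66.4 CPM in all 5 storage cell libraries, did not set replicates 2 and 4 apart.

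The second run, from g12680 to g12683, was less even. Target g12680.t1 (516 bases) had 146, 117 and 110 CPM in whole bodies and 1040 and 1084 CPM in replicates 2 and 4, whereas g12681.t1 (453 bases) had 57.7, 55.7 and 58.7 CPM in whole bodies and 82.7 and 62.7 CPM in those replicates. Target g12682.t1 (1668 bases) had 374, 304 and 224 CPM in whole bodies and 1220 and 997 CPM in replicates 2 and 4, and g12683.t1 (1608 bases) had 473, 386 and 384 CPM and 1114 and 868 CPM. On the TPM scale g12681.t1 lay below its whole bodies, with 304 and 211 TPM in replicates 2 and 4 against 339, 326 and 343 TPM. The other targets of the run stayed above theirs. None of the 4 targets had a count in replicate 5, and the highest value in replicates 1 and 3 was 4.14 CPM, of g12680.t1. The next lower number, g12679.t1, had 1106 and 1451 CPM in replicates 2 and 4 but also 35.7, 467 and 194 CPM in replicates 1, 3 and 5; it did not meet the thresholds.

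**Figure D5:**
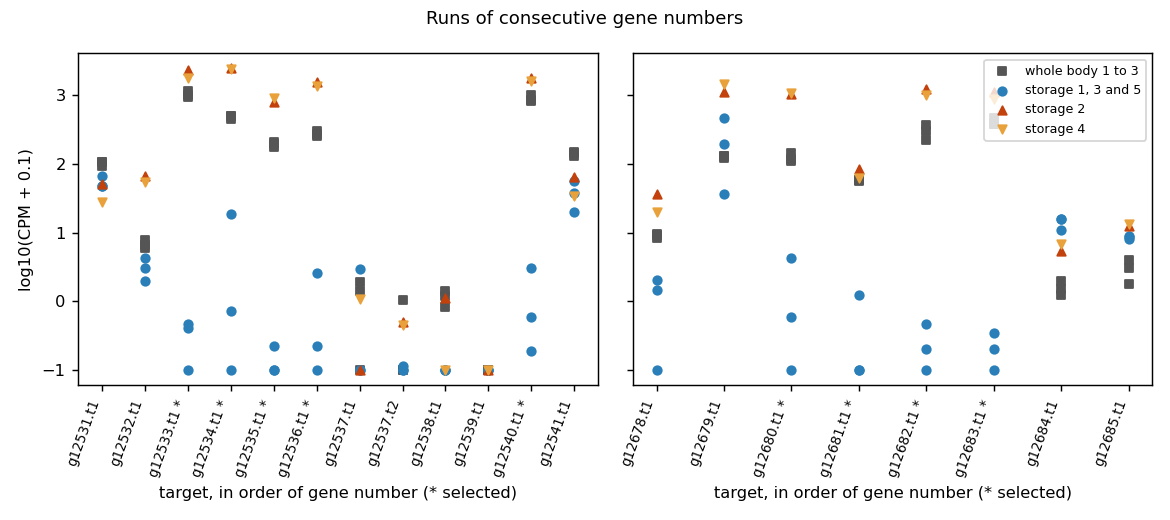
Levels of targets around the 2 longest runs of consecutive gene numbers, as log10(CPM + 0.1), with targets in order of gene number and selected ones marked by an asterisk. Squares are the 3 whole bodies, circles storage cell replicates 1, 3 and 5, and triangles replicates 2 and 4. For every marked target the triangles lie above the circles.

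Some pairs of consecutive numbers differed widely in whole-body level. Targets g12375.t1 (1764 bases) and g12376.t1 (1686 bases) had whole-body means of 335 ± 39.8 and 97.4 ± 12.4 TPM (SD, n = 3). On the CPM scale these means were 493 and 133. In replicates 2 and 4 the first reached 1180 and 1347 CPM and the second 2737 and 1231 CPM. Target g12376.t1 thus stood at 20.6 times its whole-body mean CPM in replicate 2 and 9.29 times in replicate 4. In replicate 4 the CPM of the 2 targets were close. Both had at most 4 counts in any of replicates 1, 3 and 5. Targets g297.t1 and g298.t1 formed another pair, the first with 4795 ± 403 TPM and the second with 21.9 ± 6.02 TPM in whole bodies (SD, n = 3). Target g299.t1, the next number, had no count in any library, and g300.t1 followed. Around g631.t1, target g629.t1 was selected too, and g630.t1 met the thresholds at rank 272 with 38.2, 11.8 and 155 CPM in replicates 1, 3 and 5.

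Genes with several targets showed how far the pattern held across transcript models. In 6 of the selected genes the tables list more than 1 target, with 8 selected and 4 other targets. Both targets of g11209 were selected: g11209.t2 had 842 and 720 CPM in replicates 2 and 4 against 500, 378 and 517 CPM in whole bodies, and g11209.t1 had 456 and 178 CPM against 452, 490 and 479 CPM. Both targets of g11190 were selected as well, with 172 and 104 CPM for g11190.t1 and 231 and 169 CPM for g11190.t2 in replicates 2 and 4. Whole bodies had 21.4, 31 and 48.6 CPM of g11190.t1 and 82.7, 71 and 66.7 CPM of g11190.t2. For g11209.t1 and g11190.t1 the counts in replicates 1, 3 and 5 came to 0 after rounding.

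The other targets of 4 genes fell outside the selection. Target g4611.t1 had no count in replicates 1, 3 and 5, with 663 and 477 CPM in replicates 2 and 4, while g4611.t2 had 935 and 1029 CPM there and 6.08, 40.8 and 1.97 CPM in replicates 1, 3 and 5. The latter met the thresholds but ranked below 150. Target g12522.t1 had 73.1, 67.4 and 74.6 CPM in whole bodies and 67.5 and 112 CPM in replicates 2 and 4, and g12522.t2 had at most 20.8 CPM in any library. Target g13533.t2 had 23.7 and 26.9 CPM in replicates 2 and 4 and no count in replicates 1, 3 and 5, like the selected g13533.t1, but it had no count in 2 of the 3 whole bodies and so could not lie below their lowest value. Target g12829.t2 had 39 and 65.2 CPM in replicates 2 and 4 and none in replicates 1, 3 and 5, whereas g12829.t1 had 13 CPM in replicate 2, no count in replicate 4, and 56, 16.3 and 2.51 CPM in replicates 1, 3 and 5. The second model was thus present in libraries where the selected one had no count. Reads that several models share are divided among them by the estimate, so values of single models of 1 gene are uncertain. In all, 17 of the 150 targets had a count that was not whole (beyond a tolerance of 1e-06) in at least 1 library.

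The limit of the selection fell inside a continuous range. The last 3 inside were g2923.t1, g12681.t1 and g3906.t1, with selection ratios of 30.1, 29.8 and 29.8. The next targets outside were g148.t1, g777.t1 and g9379.t1, with ratios of 29.6, 29.3 and 28.9. Target g3906.t1 had 28.8 and 64.5 CPM in replicates 2 and 4 and no count in replicates 1, 3 and 5, and g148.t1 had 268 and 450 CPM with 8.08 CPM in replicate 3. The targets inside the limit were thus not higher in replicates 2 and 4 than those outside.

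In the comparison of all 5 storage cell libraries with whole bodies, none of the selected targets passed the threshold. Over all 10483 targets tested, 3161 (30.2%) passed an adjusted p of 0.05 (two-sided quasi-likelihood test of edgeR with Benjamini-Hochberg adjustment), 1422 higher (13.6%) and 1739 lower (16.6%) in storage cells. All 150 selected targets were tested and 0 were called, with a smallest adjusted p of 0.244 (edgeR). None of the 150 had an unadjusted p below 0.05 in edgeR, against 4525 of all 10483 targets. DESeq2 also called 0 of the 150, with a smallest adjusted p of 0.189, against 4572 of 11870 targets. Their log2 fold changes ran from -3.46 to 3.38, with 92 above 0 and a median of 0.43, against -0.14 over all targets. The median standard error was 2.26, against 0.64 over all targets. The rule used values of this contrast, and targets split between 2 high and 3 low libraries have a large spread by selection, so nothing is read from these calls. The count over all targets fell to 1167, 1259 and 1217 calls when whole-body replicate 1, 2 or 3 was left out, a similar drop for each. The median standard error over all targets was then 0.85 in each fit. The cause of the drop was not tested.

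Target g2415.t1 had the highest positive fold change of the 150. Its log2 fold change was 3.38 with a standard error of 3.15 (edgeR adjusted p = 0.454), and its storage cell values ran from 0.0895 to 14757 CPM. For g10095.t1 the log2 fold change was -3.09 with a standard error of 2.38 (edgeR adjusted p = 0.361). A group mean over the 5 storage cell libraries described neither the 2 high nor the 3 low libraries for any of these targets.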

How the data were processed

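RNA-seq of 3 whole-body and 5 storage cell libraries of R. varieornatus was used, with samples grouped by title. The submitters' processing notes name bcl2fastq 2 and kallisto 0.46.1. No build, annotation or read filter is given in the sources used here. Per the file headers, the authors deposited 1 table per library with estimated counts, which are not normalized, and TPM, which are counts over effective length scaled to the same total. Of the lengths, 99.6% were multiples of 3 and are called coding lengths. Replicates of 1 group may share technical spread.

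CPM, the selection, ratios and counts were computed with Python 3.11.15, numpy 2.4.6 and pandas 2.3.3. Estimated counts were rounded and fitted with edgeR 4.0.16 (R 4.3.3; filterByExpr, TMM, glmQLFit and glmQLFTest, no covariates), a procedure tested on simulated data. DESeq2 1.42.0, other scalings, no filter, other thresholds, TPM, left-out libraries and a replicate block were alternatives. Standard errors are the log2 fold change over the square root of F. Reads without molecular identifiers are not independent, so intervals cover counting error only.

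The 150 targets, the lists and the tests were chosen with earlier results of these data known. Named were the 8 highest ranked, the 5 highest and 3 lowest in whole bodies, the 4 highest in replicates 2 and 4, the 3 most unequal between these each way, members of the longest number runs (up to 12), members of genes with several targets (up to 6), and the 3 on either side of the limit. Other targets named were chosen after their values were seen. No sequences are printed, since no file used here pairs them with the identifiers.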

Additional observations from a re-analysis of the deposited data

Results flagged for a closer look

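The 5 storage cell values of 37 named targets and of the summed share were checked for 1 library standing apart, taking its gap to the nearest library over the range of the group. Of these 38 groups 4 exceeded the critical value of 0.71, where chance would pick out about 1 in 20. They were g12387.t1 (0.882), g10095.t1 (0.911) and g7019.t1 (0.772), each with replicate 2 far above the rest, and g13163.t1 (0.794), with replicate 4 far above. All 4 had been named for unequal values in replicates 2 and 4, so the screen repeats that choice. Over all 150 targets, 5 exceeded it.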

How the results depend on the processing

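The number of targets that met the thresholds was 302 and ran from 223 (minimum of 50 CPM) to 361 (without storage cell replicate 3) over TMM-scaled CPM, TPM, other thresholds and left-out libraries, always within 1.5 times. Of the 150 selected targets, 134 met the thresholds on TPM, 132 with a minimum of 50 CPM, and all with each other alternative. As shares of TPM the selected targets held 13.4% of replicate 2 and 12.3% of replicate 4. The median log2 difference from the whole body, 1.28, was 1.42 with TMM-scaled CPM and 0.48 with TPM, and 1.26 to 1.32 with a whole body left out; the cause of these shifts was not tested.

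The count of calls between storage cells and whole bodies, 3161, ran from 1167 to 4319 with 1 library left out. It was 5281 of 10090 targets with storage cell replicates 2 and 4 both left out, an alternative added after seeing the data. In that fit 149 of the 150 selected targets were called lower, against 3219 of all 10090. The selection favours low values in the libraries that remain, so nothing is read from this. Scalings, the filter and DESeq2 kept the count within 1.5 times (2984 to 4572). Same-numbered libraries did not deviate together (correlations of 0.031, 0.026 and 0.013 for replicates 1, 2 and 3). The deviations of the storage cell libraries include the split of replicates 2 and 4, so these correlations cannot exclude that the numbers pair the samples. A fit with the replicate number as a block called 0 targets in edgeR, with 3127 at an unadjusted p below 0.05; it leaves storage cell replicates 4 and 5 without a partner. Of the 37 named targets, the sign of the fold change differed for 23 under the replicate block, 6 without storage cell replicate 2, 11 without replicate 4, and 3 or fewer under each other scaling, filter, test or left-out library, against 23 with storage cell replicates 2 and 4 both left out. None of these targets was called in the fit with all libraries. Depth limits the low values: levels in replicates 1, 3 and 5 rest on few counts.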

Other observations

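The few counts of the selected targets in the 3 low storage cell libraries were led by targets that were shared in part. In replicate 1, g8357.t1 had 270 of the 643 counts (32.8 CPM) but 1 count in replicate 3. In replicate 3, g8269.t1 had 337 counts (34.9 CPM), g1208.t1 had 250 and g12534.t1 had 181, of 2538 in all, while the same 3 targets had 1, 1 and 0 counts in replicate 5. In replicate 5, g7237.t1 had 90 counts, g8357.t1 had 81 and g12250.t1 had 79, of 521 in all. Target g8357.t1 thus led in replicate 1 and was second in replicate 5, and g12250.t1 had 138 counts in replicate 3 as well. The 10 leading targets held 71.8%, 58.8% and 74.9% of the counts of the selected targets in replicates 1, 3 and 5, against 44.9% in replicate 2, 48.2% in replicate 4 and 41.5% to 42.9% in whole bodies. These targets were named after their values were seen.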
